A study of Rattus norvegicus with 6 samples.

Results

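The 9 genes described here encode subunits of the voltage-gated potassium channels of the Kv1 family in the rat. They are 6 of its alpha subunits, Kcna1, Kcna2, Kcna3, Kcna4, Kcna5 and Kcna6, and the 3 beta subunits Kcnab1, Kcnab2 and Kcnab3. Kcna7 and Kcna10, alpha subunits of the same family, were not among the 9 and are given at the end. The 9 genes were taken by gene symbol from a table of 18696 genes, and all 9 were found. The RNA came from whole dorsal root ganglia of SD rats, where the cell bodies of sensory neurons lie. In the SNI group (spared nerve injury, 3 libraries) the sciatic nerve had its common peroneal and tibial branches ligated and severed, a few millimetres beyond the ligature were taken out, and the sural branch was left whole. In the sham group (3 libraries) the nerve was laid bare and left uncut before the skin was closed. No transgene or drug is named in the labels. The age and sex of the rats, the time after surgery, the side and level of the ganglia and any pooling of animals are missing from the labels. The sural branch was spared, so a ganglion of an SNI rat can hold both injured and uninjured neurons.

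Kv1 channels are tetramers of alpha subunits, each with a voltage sensor and a share of the pore. They open near the resting potential and hold back repetitive firing. In myelinated fibres, those of sensory neurons among them, channels of Kcna1 and Kcna2 sit beside the node of Ranvier. They lie under the myelin, in the juxtaparanode, where a scaffold of adhesion proteins holds them. Beta subunits are cytoplasmic proteins with an aldo-keto reductase fold that bind the alpha tetramer, and they affect its trafficking or its inactivation. Loss of Kv1 current makes sensory neurons more excitable, which is why the family has been studied in nerve injury.

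Levels are in TPM, the share of a transcript among all transcripts of a library after correction for gene length. Levels of different genes set side by side, their order and their shares depend on the gene lengths the authors used, which are not given. The authors deposited the average TPM of each group for all 9 genes and TPM per library for 3 of them, Kcna1, Kcna2 and Kcnab1. Of all genes with averages, 8.71% had values per library. Those 3 could be tested, and the other 6 have averages with no error and no test. The name of the set with values per library holds 'dif gene', and the rule behind it is not stated. Having such values may therefore depend on the change between groups. Counts of genes falling among those tested describe that set and not all genes. Average reads per group came to 18.6 M for sham and 18.6 M for SNI, and the depth of each library is unknown. Nothing in the labels ties each library to its own animal, so p-values reflect only how far these libraries scatter, and that scatter may be technical.

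Of the 9 genes, 8 had a lower average in SNI than in sham, and Kcna3 had nearly the same average in both. Over all 18696 genes 45.9% had a lower average in SNI, and over those averaging at least 1 TPM 47.1%. The median log2 ratio of the averages, on the log2(TPM + 1) scale, was −0.33 over the 9 genes and 0.02 over all genes. None of the 9 was in the authors' deposited list of higher genes (3.63% of all genes with averages) or of lower genes (0.695%). No header or label states the threshold behind those lists. Of the 3 genes with values per library, all 3 fell in SNI with limma (Benjamini-Hochberg adjustment, threshold 0.05), against 29.2% of the 1596 genes tested that fell. Another 32% of the genes tested rose. In each of those 3 genes every SNI library lay below every sham library, as it did in 31.3% of the genes tested.

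**Figure D1:**
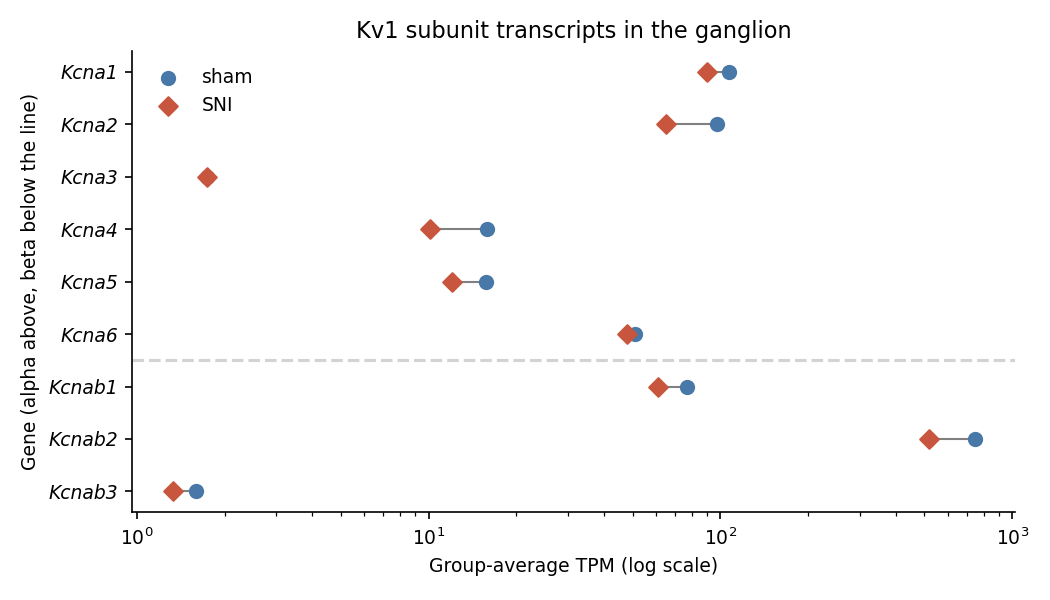
Group-average TPM of the 9 Kv1 genes in sham (circles) and SNI (diamonds) on a logarithmic axis, alpha subunits above the dashed line and beta subunits below it. Kcnab2 lies far to the right of the rest, the sham mark of Kcna3 is hidden behind its SNI mark, and in the other 8 genes the SNI mark is to the left.

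The order of the averages in sham ran from Kcnab2 (745 TPM) through Kcna1 (107 TPM), Kcna2 (97.1 TPM), Kcnab1 (76.9 TPM) and Kcna6 (50.8 TPM) to Kcna4 (15.8 TPM) and Kcna5 (15.7 TPM). Kcna3 (1.74 TPM) and Kcnab3 (1.59 TPM) were at the bottom. Among the genes with values per library, the sham ranges of Kcna1 (96.7 to 113 TPM) and Kcna2 (91.4 to 103 TPM) overlapped. The SNI ranges of Kcna1 (88.2 to 92.3 TPM) and Kcna2 (63.3 to 66.7 TPM) did not overlap. Kcna2 and Kcnab1 were apart in sham, and in SNI the lowest Kcna2 library (63.3 TPM) lay under the highest Kcnab1 library (63.5 TPM). Whether neighbours among the other 6 genes differ beyond their spread cannot be said from averages.

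The start regions of the genes were read from RefSeq promoter windows of the GRCr8 assembly, which held 8 of the 9 genes, all but Kcna1. No label or header names the build of the deposited files, so these windows are shown for reference and no expression value was placed on them. The 3 windows below are the 250 bases before the listed start of the pair of alpha genes with the lowest SNI averages relative to sham, and of the most abundant beta gene, each with its CpG dinucleotides in capitals. CpG dinucleotides are where vertebrate DNA is methylated, and methylation at Kcna2 after nerve injury has been described. The Kcna2 window is chr2:197393280-197393529 on the plus strand, the Kcna4 window chr3:114215086-114215335 on the plus strand and the Kcnab2 window chr5:168270761-168271010 on the minus strand.
Kcna2 upstream window: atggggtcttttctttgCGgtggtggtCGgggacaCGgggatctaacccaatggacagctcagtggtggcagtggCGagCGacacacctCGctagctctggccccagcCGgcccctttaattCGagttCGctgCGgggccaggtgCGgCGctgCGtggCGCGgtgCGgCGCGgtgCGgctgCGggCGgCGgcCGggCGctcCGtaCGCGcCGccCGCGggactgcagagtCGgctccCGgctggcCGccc
Kcna4 upstream window: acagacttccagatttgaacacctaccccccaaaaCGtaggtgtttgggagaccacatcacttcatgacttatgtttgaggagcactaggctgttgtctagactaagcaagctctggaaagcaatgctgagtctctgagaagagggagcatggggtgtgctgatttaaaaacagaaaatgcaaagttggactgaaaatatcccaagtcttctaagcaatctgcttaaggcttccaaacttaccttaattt
Kcnab2 upstream window: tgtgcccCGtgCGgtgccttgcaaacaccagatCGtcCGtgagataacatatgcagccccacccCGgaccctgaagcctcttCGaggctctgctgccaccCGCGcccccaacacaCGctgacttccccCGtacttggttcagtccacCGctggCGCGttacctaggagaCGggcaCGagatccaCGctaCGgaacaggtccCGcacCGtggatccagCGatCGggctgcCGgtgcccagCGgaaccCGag

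The windows of these genes differed widely in sequence. Kcna2 had 33 CpG and 72.4% G or C, Kcnab2 had 24 CpG and 65.2%, and Kcna4 had 1 CpG and 42.8%. Over the 33469 windows of the table the median was 5 CpG. The Kcna2 count was above that of 96.4% of all windows and the Kcna4 count above that of 7.83%. Kcna3, the gene next to Kcna2 in the RefSeq order, had 29 CpG, and Kcna5 and Kcna6 had 3 each. Whether CpG content goes with the change between groups was not tested. The GC box GGGCGG, on either strand, had 3 matches in the Kcna2 window and 3 in that of Kcna3, and was present in 30.5% of all windows. The AP-1 motif TGANTCA, the cAMP response element TGACGTCA and the E-box CACGTG matched none of the 8 windows, and they were present in 6.34%, 1.59% and 5.59% of all windows. The motif TGGGGA, a core of sites of the zinc finger protein Mzf1, also had no match (22.6% of all windows), and TTCNNNGAA, a STAT motif, had 1, in Kcna6 (7.67%). The motifs do not overlap each other in these windows, and a missing match says only that the letters are not in that window.

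Kcna2, an alpha subunit of the juxtaparanode and of the cell body of large and medium neurons, had the largest fall of the 3 tested genes. It stood at 103, 91.4 and 97.1 TPM in the 3 sham libraries and at 63.3, 65.2 and 66.7 TPM in the 3 SNI libraries. The groups did not overlap, and the SNI libraries lay closer together than the sham libraries. The mean went from 97.1 ± 5.65 to 65.1 ± 1.70 TPM (SD, n = 3 each), or 67.0% of the sham level. On the log2(TPM + 1) scale the change was −0.57 (SE 0.06, limma adjusted p = 1.9e-05). Among genes averaging at least 1 TPM, 2.89% had a ratio of averages as low as that of Kcna2 or lower. An antisense RNA of Kcna2 is known in sensory neurons, and the counting is not stated to use strand, so reads of the gene and of an antisense transcript cannot be told apart here.

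Kcna1, the partner of Kcna2 in the juxtaparanodal channels, fell less. Its sham libraries were at 112, 96.7 and 113 TPM and its SNI libraries at 88.2, 88.3 and 92.3 TPM. The lowest sham library, the second in the deposited table, came near the highest SNI library, but the groups did not overlap. The mean went from 107 ± 9.01 to 89.6 ± 2.30 TPM (SD, n = 3 each), 83.7% of the sham level, a log2 change of −0.25 (SE 0.06, limma adjusted p = 0.0083). A ratio of averages as low as this or lower was found in 13.5% of genes averaging at least 1 TPM.

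**Figure D2:**
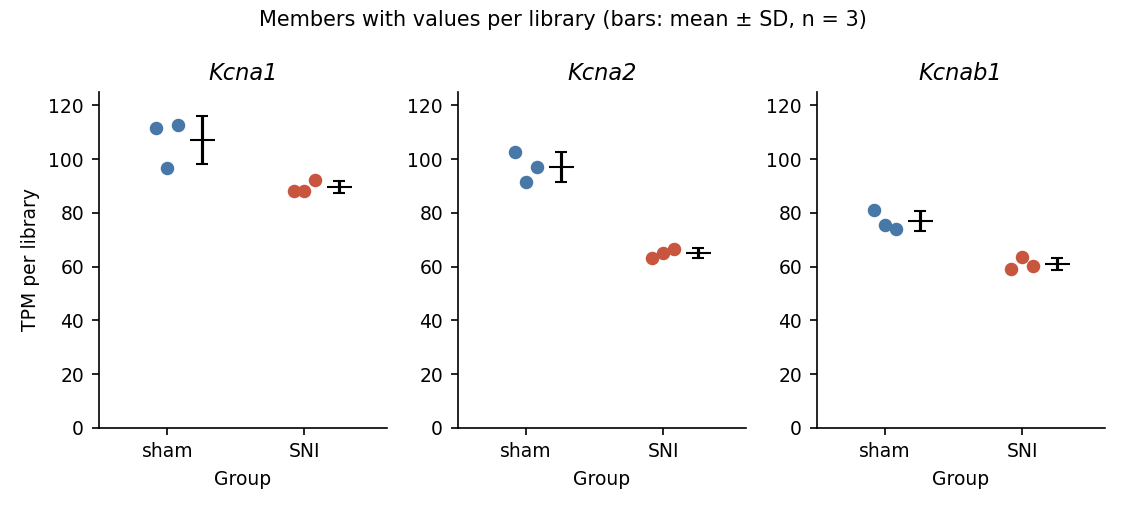
TPM in each library (points) of the 3 Kv1 genes with values per library, by group, with the mean and SD of 3 libraries as bars beside them. In each gene the 3 SNI points lie below the 3 sham points, and the gap is widest in Kcna2.

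Since both genes were measured in the same libraries, their ratio within a library does not depend on how the library was scaled. Kcna2 over Kcna1 was 0.919, 0.946 and 0.861 in the sham libraries and 0.718, 0.738 and 0.723 in the SNI libraries. All 3 SNI ratios lay below all 3 sham ratios. The mean ratio was 0.909 ± 0.0433 in sham and 0.726 ± 0.0105 in SNI (SD, n = 3 each), and the two-sided exact permutation test gave p = 0.1, the smallest that 3 against 3 libraries allow. With adjustment over the 3 ratios computed between members, the exact permutation p was 0.15. In TPM, Kcna2 lay below Kcna1 in all 6 libraries, an order that depends on the gene lengths used.

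Of the other 4 alpha subunits, Kcna4 had the lowest SNI average relative to sham. Kcna4 forms the fast inactivating, A-type Kv1 channel of small nociceptive neurons. It averaged 15.8 TPM in sham against 10.1 in SNI, 64.0% of the sham level, a log2 ratio of −0.60. Only 2.51% of genes averaging at least 1 TPM had a ratio as low or lower. Its average read count was 561 in sham and 372 in SNI, and the log2 ratio of the reads, −0.59, had a 95% interval of −0.70 to −0.48. This interval, like the 4 given below for other members, is an exact Clopper-Pearson interval on 3 times the average counts, covers counting error only and says nothing of the spread between libraries.

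Kcna5, an alpha subunit also known from vascular muscle and Schwann cells, averaged 15.7 TPM in sham against 12.04 in SNI. Its log2 ratio of averages was −0.36, and that of the reads −0.37 (95% interval −0.53 to −0.22). Of 5 smooth muscle and pericyte markers, 4 had a higher average in SNI and Tagln a lower one (37.5 and 34.8 TPM), and their summed level was 104 TPM in sham against 127 in SNI. Myelinating Schwann cell markers were lower in all 6 of 6 genes, with a summed level of 10801 TPM in sham against 5804 in SNI, and the part of these cells in the level of Kcna5 was not tested.

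Kcna6, another neuronal alpha subunit, averaged 50.8 TPM in sham against 47.9 in SNI, 94.3% of the sham level. Its log2 ratio of −0.08 was small beside those of Kcna2 and Kcna4, and the interval of its read ratio was −0.11 to −0.03. In the RefSeq gene order Kcna5, Kcna1 and Kcna6 follow each other with no protein-coding gene between them, and so do Kcna3 and Kcna2. The log2 ratios of averages were −0.36, −0.25 and −0.08 for Kcna5, Kcna1 and Kcna6 and 0.00 and −0.57 for Kcna3 and Kcna2, and differences between neighbours were not tested.

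Kcna3 is the alpha subunit of T cells and of activated macrophages and is also found in some neurons. It averaged 1.74 TPM in sham against 1.75 in SNI, on average read counts of 24.7 and 25. At this depth the log2 ratio of the reads had a 95% interval of −0.46 to 0.50, so the counts alone do not exclude a change within those limits. All 6 T cell markers had a higher average in SNI, with a summed level of 8.73 TPM in sham against 15.1 in SNI. The T cell markers rest on few reads, with Cd3d on 4.67 average reads in sham and 9.33 in SNI. All 8 macrophage markers had a higher average in SNI too, at 102 and 238 TPM summed. One of them, Cd163, hardly differed (6.03 and 6.20 TPM) and did not pass the test (limma adjusted p = 0.73). The part of these cells in the level of Kcna3 was not tested.

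Summed over the 6 alpha subunits, the averages came to 288 TPM in sham against 226 in SNI, 78.6% of the sham level. Kcna1 and Kcna2 made up most of the sum in both groups. The share of Kcna2 was 33.7% in sham and 28.7% in SNI, that of Kcna1 37.1% and 39.6%, and that of Kcna6 17.6% and 21.1%. Kcna4 held 5.49% and 4.47%, Kcna5 5.46% and 5.32%, and Kcna3 0.605% and 0.771%. The make-up of the alpha transcripts thus held less Kcna2 and Kcna4 and more Kcna1 and Kcna6 in SNI, as shares of averages with no error.

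**Figure D3:**
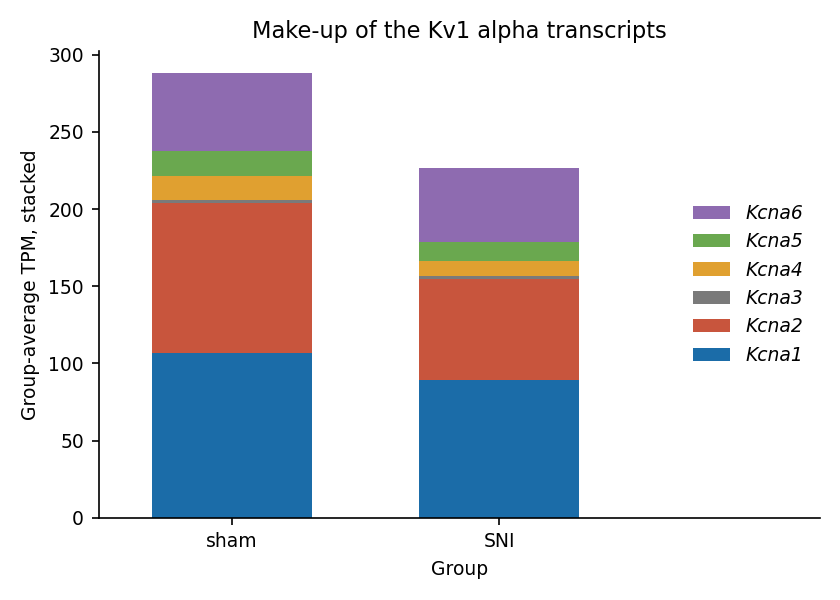
Group-average TPM of the 6 Kv1 alpha subunits stacked for sham and SNI. The sham stack is 288 TPM high and the SNI stack 226 TPM, and the Kcna2 block narrows from 97.1 to 65.1 TPM while the Kcna6 block goes from 50.8 to 47.9 TPM.

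Among the beta subunits, Kcnab2 was by far the most abundant. It binds Kv1 channels and aids their delivery to the axon, and it does not inactivate them. It averaged 745 TPM in sham against 520 in SNI, 69.8% of the sham level, on average read counts of 24905 and 17517. Its log2 ratio of averages was −0.52, and 3.71% of genes averaging at least 1 TPM had a ratio as low or lower. It was not among the genes with values per library, so its spread is unknown.

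Kcnab1, whose long amino-terminal end can plug the pore and give fast inactivation, was tested. It stood at 81.0, 75.7 and 74.0 TPM in the sham libraries and at 58.95, 63.5 and 60.3 TPM in the SNI libraries. No SNI library reached the lowest sham library. The mean went from 76.9 ± 3.65 to 60.9 ± 2.33 TPM (SD, n = 3 each), 79.2% of the sham level, a log2 change of −0.33 (SE 0.05, limma adjusted p = 0.00061). A ratio of averages as low or lower was found in 9.19% of genes averaging at least 1 TPM.

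Kcnab3, the least abundant member, averaged 1.59 TPM in sham against 1.33 in SNI, on 29.3 and 25 average reads. The 95% interval of its log2 read ratio, −0.69 to 0.23, included 0. The 3 beta subunits summed to 823 TPM in sham against 582 in SNI, 70.7% of the sham level. In TPM, with the gene lengths the authors used, the beta sum was 2.86 times the alpha sum in sham and 2.57 times in SNI. Kcnab2 held 90.5% of the beta sum in sham and 89.3% in SNI.

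The fall of Kcnab1 lay between those of Kcna1 and Kcna2. Its ratio to Kcna1 within a library was 0.725, 0.783 and 0.657 in sham and 0.668, 0.719 and 0.653 in SNI. These groups overlapped (exact permutation p = 0.4, 0.4 after adjustment over the 3 ratios). Kcna2 over Kcnab1 was 1.27, 1.21 and 1.31 in sham and 1.07, 1.03 and 1.11 in SNI. All 3 SNI values were lower, at an exact permutation p = 0.1 and 0.15 after adjustment.

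**Figure D4:**
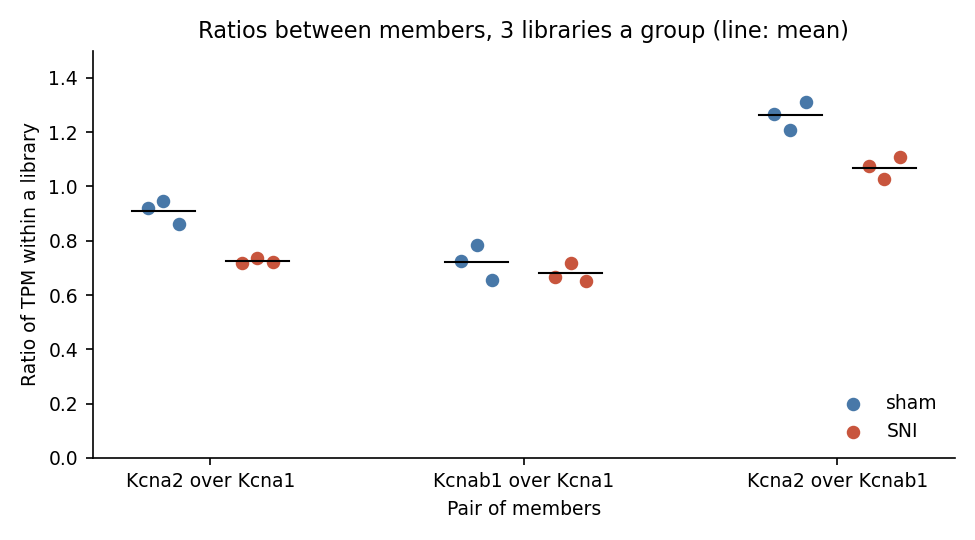
Ratio of TPM between 2 members within each library (points) in sham and SNI, with the mean of 3 libraries as a line. Kcna2 is lower relative to Kcna1 and to Kcnab1 in all 3 SNI libraries, and the groups overlap for Kcnab1 over Kcna1.

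In a whole ganglion, fewer cells of a type and less RNA per cell cannot be told apart, so the members were set beside neuronal genes of the same libraries. Of 8 sensory neuron markers, 5 had a lower and 3 a higher average in SNI, with a summed level of 16597 TPM in sham against 17707 in SNI. Tubb3 and Prph, a tubulin and an intermediate filament, set the direction of that sum, as the other 6 summed to 9109 and 8206 TPM. Only Snap25, a protein of vesicle release, and Elavl4, a neuronal RNA-binding protein, had values per library. Snap25 fell (log2 change −0.43, limma adjusted p = 1.2e-05), and Elavl4 did not pass the test (log2 change 0.12, limma adjusted p = 0.15).

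The choice of neuronal gene set the direction for Kcna1. Kcna1 over Snap25 was 0.0649, 0.0549 and 0.0687 in the sham libraries and 0.0696, 0.0700 and 0.0722 in the SNI libraries, all 3 of which were higher. Kcna1 over Elavl4 was lower in all 3 SNI libraries, with means of 0.931 ± 0.0490 in sham and 0.720 ± 0.0160 in SNI (SD, n = 3 each). For Kcna2, the ratio to Elavl4 went from 0.845 ± 0.0269 to 0.522 ± 0.00815, with the groups apart. Its ratio to Snap25, 0.0569 ± 0.00430 in sham and 0.0513 ± 0.00118 in SNI, overlapped between the groups. Kcnab1 over Snap25 overlapped as well, and Kcnab1 over Elavl4 was lower in all 3 SNI libraries (0.670 ± 0.0432 and 0.489 ± 0.0145).

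Markers of large-diameter sensory neurons, the cells with most juxtaparanodal Kv1 channels, were lower in 6 of 8 genes (Cntnap2, described below as a partner of Kv1 channels, is 1 of the 8), at a summed level of 6523 TPM in sham against 5714 in SNI. Spp1, osteopontin, rose within this list (1172 to 2219 TPM), and without it the other 7 summed to 5351 and 3495 TPM. Nefh made up most of that sum, at 4485 TPM in sham and 2877 in SNI. Ntrk2 also had a higher average in SNI (90.4 and 96.7 TPM). Runx3, counted as lower, hardly differed (14.4 and 14.3 TPM), and by average reads 5 of the 8 were lower. The level of myelinating Schwann cell markers is given above. Markers of injured sensory neurons were higher in all 6 of 6 genes, at 367 and 3152 TPM summed. Erythrocyte markers were higher in 5 of 5, at 1013 and 2941 TPM. No marker in these lists had an average of 0. Their part in the lower Kv1 values was not tested.

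The other proteins of the Kv1 complex were taken from a list of 18 adhesion, scaffold and ligand genes. Of these, 11 had a lower and 7 a higher average in SNI (median log2 ratio −0.17), and none was in the authors' lists. Among all genes averaging at least 1 TPM, 47.1% had a lower average. Values per library were given for 9, of which 7 fell, none rose and 2 did not pass, against 29.2% of all genes tested falling. Lgi3, a secreted ligand of the Kv1 complex, fell most. It was at 214, 209 and 215 TPM in sham, against 134, 132 and 134 in SNI, a log2 change of −0.67 (SE 0.04, limma adjusted p = 9.3e-07). Every SNI library of Lgi3 lay well below every sham library.

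Cntnap2, the adhesion protein that anchors Kv1 channels at the juxtaparanode, fell from 40.3 ± 2.89 to 32.1 ± 1.25 TPM (SD, n = 3 each, limma adjusted p = 0.0021). Adam22 and Adam23, receptors for Lgi proteins, fell by 0.30 and 0.31 on the log2 scale (limma adjusted p = 0.0030 and 0.0014). The most abundant of the other genes were Epb41l3, a membrane skeleton protein of the paranode and juxtaparanode, at 524 and 443 TPM, and Lgi4, a Schwann cell ligand, at 207 TPM in sham against 255 in SNI. Epb41l3 fell (limma adjusted p = 0.0025) and Lgi4 was not tested. Ank2 and Ank3, ankyrins that anchor other channels, were the 2 genes that did not pass, at log2 changes of 0.10 and 0.13. Both are named because they were the exceptions, after their values were seen.

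Members were also set against Cntnap2 within libraries. Kcna2 over Cntnap2 was 2.36, 2.42 and 2.44 in sham and 2.02, 2.08 and 1.99 in SNI, with the groups apart. Kcna1 over Cntnap2 was 2.65 ± 0.152 in sham and 2.80 ± 0.0365 in SNI (SD, n = 3 each), and the groups overlapped. Kcnab1 over Cntnap2 overlapped too, at 1.91 ± 0.0828 and 1.90 ± 0.113. These ratios are given as values, with no test.

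Among 28 other voltage-gated potassium channel alpha subunits, 20 had a lower and 8 a higher average in SNI, against 45.9% of all genes lower. Their median log2 ratio was −0.36, beside the −0.31 of the 6 Kv1 alpha subunits. The 28 include Kcna7 (0.12 TPM in sham, 0.143 in SNI) and Kcna10 (0.333 and 0.293 TPM), which are Kv1 alpha subunits too, at very low averages. All 9 with values per library fell, against 29.2% of all genes tested, and none of the 8 with a higher average had such values. Among the larger log2 changes were those of Kcns1 (−0.91) and Kcns3 (−0.77), silent modifiers of Kv2 channels, and of Kcnc1 (−0.68), a fast Kv3 channel. Each was larger than the −0.57 of Kcna2. Whether they differ from Kcna2 was not tested. The most abundant of the rest were Kcnd1, a Kv4 channel that averaged 155 TPM in sham against 126 in SNI and was not tested, and Kcnh2, a channel of the ERG family that fell from 126 ± 7.68 to 87.3 ± 2.19 TPM (SD, n = 3 each).

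**Figure D5:**
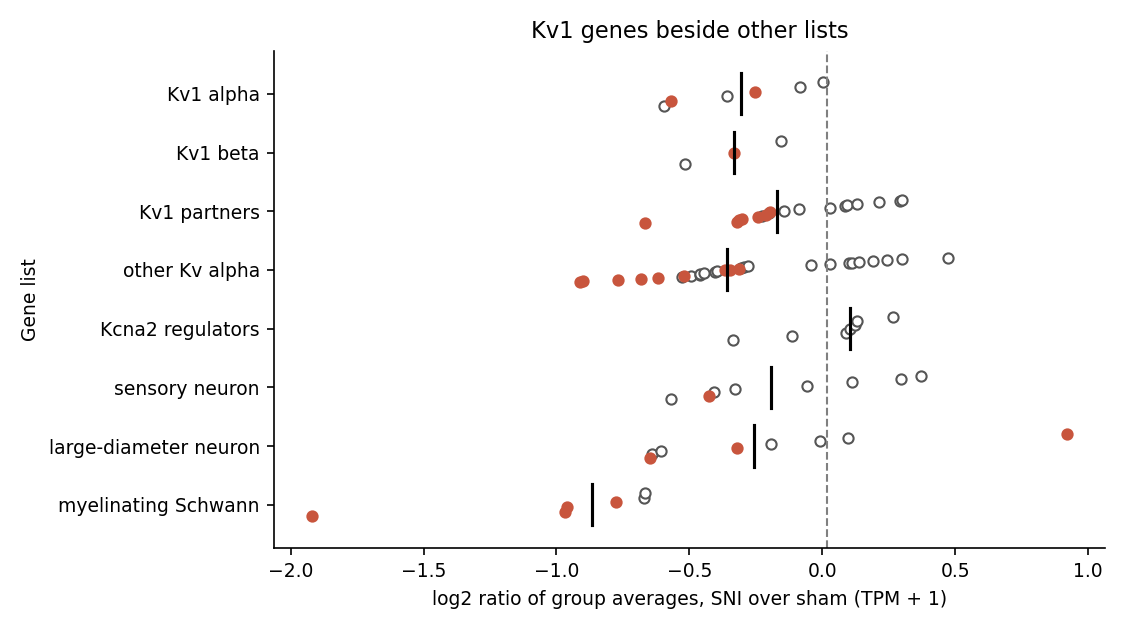
Ratio of group averages, SNI over sham, on the log2(TPM + 1) scale for each gene of 8 lists, with filled points for genes called by limma, open points for the rest and a bar at each list's median. The dashed line is the median of all genes (0.02), and the medians of the Kv1 alpha (−0.31), Kv1 beta (−0.33) and other Kv alpha lists (−0.36) lie to its left. The other Kv alpha list includes Kcna7 and Kcna10.

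A list of 7 genes reported as regulators of Kcna2, most of them DNA or histone methyltransferases and methyl-DNA or DNA-binding proteins, had no values per library. Of these, 5 had a higher and 2 a lower average in SNI (median log2 ratio 0.10), and none was in the authors' lists. A lower average was found in 45.9% of all genes. Ehmt2, a histone methyltransferase, averaged 47.6 TPM in sham against 51.9 in SNI, and Mbd1, a methyl-DNA binding protein, 16.1 and 17.2 TPM. Dnmt3a, a DNA methyltransferase linked to Kcna2 in nerve injury, averaged 5.66 and 6.15 TPM, and Mzf1, a zinc finger protein, 6.64 and 6.06 TPM. The highest log2 ratio of the list was that of Dnmt1 (0.27, 7.59 TPM in sham and 9.32 in SNI). The lowest was that of Myt1l (−0.34, 10.9 and 8.41 TPM). Dnmt3a, Mzf1, Dnmt1 and Myt1l are named after their values were seen.

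The genes most like each tested member over the 6 libraries were found by Pearson correlation of log2(TPM + 1) with 1471 other genes of the per-library table. All such values share the split into 2 groups and the libraries, so they are a description. The genes nearest to Kcna2 were Kank4 (r = 0.999), Atp11a (0.999) and Atp2b3 (0.997). Those nearest to Kcna1 were Atp2b2 (0.999), Slc38a1 (0.998) and Apba1 (0.997). Those nearest to Kcnab1 were Kcnh7 (0.995), Six4 (0.993) and Pcsk2 (0.992). Atp2b2 and Atp2b3 encode calcium pumps of the plasma membrane, and Kcnh7 is a potassium channel. The members were less like each other. Kcna1 and Kcna2 had r = 0.924, and 277 genes were more like Kcna2 than Kcna1 was.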

How the data were processed

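The authors' values, per the file headers, are TPM per library for 1637 genes, and average TPM and average read counts of each group for 18696 genes. The read counts, as deposited by the authors, are averages of estimated counts, whole when multiplied by 3 for 65.4% (sham) and 64.8% (SNI) of genes (tolerance 0.001), and a scaling to 1 common total before averaging cannot be told from them. Their group sums were nearly equal (18.59 M and 18.59 M). The sources used here give no aligner, counter, build or strand, and the labels name 2 extraction and 2 library kits. Kv1 alpha genes resemble each other, and how shared reads were counted is not given either. Columns named control were taken as sham, without replicate numbers. The authors' lists of higher and lower genes are given as Gene IDs, with no score.

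Genes averaging at least 1 TPM were kept (41 left out) and log2(TPM + 1) was tested with limma 3.58.1 (R 4.3.3), group as the only term, with an intensity trend and Benjamini-Hochberg adjustment over 1596 genes. The step was tested on simulated data of 1596 genes, most of them unchanged and all with the same spread. There it called 80.0% of genes changed by 0.5 on the log2 scale and 0.287% of unchanged genes. Changes as small as those of Kcna1 and Kcnab1 were not simulated, nor were spreads that differ between genes. Alternatives were a pseudocount of 0.1, no filter, a minimum of 5 TPM, quantile normalization, no trend and leaving out each library. Fold changes with a pseudocount understate those of low genes. Permutation tests used scipy 1.17.1 (Python 3.11.15), and figures matplotlib 3.10.9. RefSeq (GRCr8) gave gene order and windows, and all 9 Gene IDs matched it. The members and lists were chosen with earlier results of these data known. Named genes were all members, and of each other list up to 4 called genes with the largest change and then the 2 most abundant others, except for 1 gene that is not reported here. Ank2, Ank3, Dnmt3a, Mzf1, Kcna7, Kcna10, Tubb3, Prph, Spp1, Tagln, Snap25, Elavl4, Cd163 and Cd3d lie outside this rule and were chosen after their values were seen. The same holds for Nefh, Ntrk2, Runx3, Dnmt1 and Myt1l.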

Additional observations from a re-analysis of the deposited data

How the results depend on the processing

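The falls of Kcna1, Kcna2 and Kcnab1 kept their direction and stayed under an adjusted p of 0.05 in limma under all 11 alternatives run. Their log2 changes ranged from −0.32 to −0.21 (largest adjusted p = 0.032), from −0.61 to −0.53 (0.00020) and from −0.36 to −0.29 (0.0047). With each library left out in turn the number of members called lower was 3 each time, and over all genes 442 to 522 were called higher and 381 to 477 lower. Quantile normalization changed the split over all genes from 510 higher and 466 lower to 402 and 608. The 8 lower averages stayed 8 with average read counts. The count was also 8 with a pseudocount of 0.1 and with at least 10 average reads, but neither setting could alter it. A pseudocount cannot change the direction of a ratio, and every member averaged more than 10 reads in each group. Without Kcna1, the most abundant alpha subunit in TPM (Kcna2 and Kcna6 had more reads), the log2 ratio of the summed alpha averages went from −0.35 to −0.40.

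Leaving Spp1, or Tubb3 and Prph, out of the marker sums was chosen after seeing the data.

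No paired analysis was possible because the sham columns, named control, carry no sample title, so that the numbers in the titles could not be given to them, and the planned replicate block was not run. No count test was run, as the files hold no counts per library. The depth of single libraries is unknown, and Kcna3 and Kcnab3 rest on few reads.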

Other observations

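Reads and TPM ordered the members differently. Kcna2 took 10010 average reads in sham and Kcna1 1681, 5.96 times fewer, though Kcna1 had the higher TPM (107 against 97.1). The reads behind 1 TPM were 103 for Kcna2 and 15.7 for Kcna1, so the gene length used for Kcna2 was 6.57 times that used for Kcna1. The level of Kcna1 relative to Kcna2 therefore depends on the gene lengths the authors used, which no header or label gives. The change of each gene between groups does not depend on them, as the log2 ratios of average reads were −0.24 for Kcna1 and −0.56 for Kcna2, beside −0.25 and −0.57 from TPM.

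Further members of the wider Kcna family were near the bottom of the table. Kcna10 averaged 0.333 TPM in sham against 0.293 in SNI, on 5.33 and 4.67 average reads, and Kcna7 averaged 0.12 and 0.143 TPM.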
